A study of Mus musculus with 20 samples.

Results

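Fezf1, Onecut2 and Cux2 are 3 genes for transcription factors. They were selected on the values described here, because their RNA was higher in olaparib-resistant mouse breast tumours than in the sensitive tumours those came from. The 3 genes were found by symbol in a deposited table of 16411 genes, and all 3 were among the 16330 genes tested, so no member was lost to the filter on low values. Bulk RNA sequencing of poly(A) RNA had been done on mouse breast tumours grown in mice as allografts, which are tumour pieces carried in other mice. Olaparib is an inhibitor of PARP, an enzyme family of DNA repair, and the study set resistant tumours against sensitive ones with and without it.

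The groups were olaparib-treated OR1 tumours (4 libraries, 3 title codes), untreated OR1 tumours (3 libraries, 2 codes), olaparib-treated OR2 tumours (3 libraries, 3 codes), untreated OR2 tumours (2 libraries, 1 code), olaparib-treated MDA594 tumours (3 libraries, 2 codes) and untreated MDA594 tumours (4 libraries, 3 codes). OR1 and OR2 stand for MDA594OR1 and MDA594OR2, the resistant lines, and MDA594 is the sensitive line that both are named after. Each line is a single tumour line, and the host strain, the host age and the duration of treatment are not given in the sources used here. The titles of all 10 treated libraries carry the number 100 after the drug's name, without a unit. The last code of a title was taken as the host animal, although the labels do not say so. The libraries of untreated OR2 thus share 1 host. Library sizes ran from 36.8 M to 118 M reads. The labels of 1 further MDA594 library contradict each other on treatment, and it was put in no group. Of 8 mammary epithelial markers, 6 were in the table and summed to 1210 to 4120 CPM (reads scaled to a common library size) across the 19 libraries. Krt5 and Krt19, defining markers of basal and luminal cells, were not rows of it.

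Fezf1 (FEZ family zinc finger 1) is a zinc finger protein that acts mainly as a repressor through TLE co-repressors, and in the mouse it is best known from forebrain patterning and the olfactory system. Onecut2 carries 1 CUT domain and a homeodomain; it acts with the related Onecut1 in the development of the liver, pancreas and retina, and the human protein is known from prostate cancer that has stopped responding to androgen blockade. Cux2 carries 3 CUT domains and a homeodomain and is best known as a marker of upper-layer neurons in the mouse cortex. CUT-domain proteins bind short sites around the core ATCGAT or ATTGAT.

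Promoter windows of Fezf1 and Cux2 are shown because the genes differ in their level between the lines and because the CUT core can be looked for in them. The windows come from RefSeq on the mouse build GRCm38.p6, hold 250 bases before and 50 bases after each start, and run 5′ to 3′ on the minus strand on which both genes lie. Capitals mark matches to the CUT core, and to TATAAA where it runs on from it, on the strand shown. Fezf1 has 1 start, at chr6:23248215-23248514, and Cux2 has a first start at chr5:122049802-122050101 and a second at chr5:122047776-122048075.
Fezf1: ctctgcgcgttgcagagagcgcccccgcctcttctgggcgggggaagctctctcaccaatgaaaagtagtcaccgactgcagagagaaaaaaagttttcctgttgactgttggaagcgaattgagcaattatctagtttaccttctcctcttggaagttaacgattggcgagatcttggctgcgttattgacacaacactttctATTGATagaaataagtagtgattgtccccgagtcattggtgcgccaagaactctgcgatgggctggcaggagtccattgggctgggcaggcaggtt
Cux2, first start: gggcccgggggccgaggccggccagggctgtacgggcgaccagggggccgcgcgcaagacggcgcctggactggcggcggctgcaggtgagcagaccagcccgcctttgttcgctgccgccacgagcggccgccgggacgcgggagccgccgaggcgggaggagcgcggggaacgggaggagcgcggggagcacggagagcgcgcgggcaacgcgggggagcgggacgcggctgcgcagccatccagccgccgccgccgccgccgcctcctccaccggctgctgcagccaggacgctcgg
Cux2, second start: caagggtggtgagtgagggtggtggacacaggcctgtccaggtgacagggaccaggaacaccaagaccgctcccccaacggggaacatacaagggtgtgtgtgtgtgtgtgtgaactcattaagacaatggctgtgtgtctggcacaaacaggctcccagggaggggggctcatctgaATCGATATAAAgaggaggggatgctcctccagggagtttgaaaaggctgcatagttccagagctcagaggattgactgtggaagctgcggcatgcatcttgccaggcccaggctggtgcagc

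The Fezf1 window held ATTGAT at position -46 from the start, GGGCGG at -215 and 4 matches to CCAAT, with both strands searched. Its 13 CpG dinucleotides compare with a median of 7 over the same windows of all genes. The first Cux2 window held none of the 5 motifs searched but was rich in CpG, with 48 such dinucleotides and 80.3% G or C, and 98.8% of windows had fewer. The second Cux2 window held ATCGAT at -72 and TATAAA at -67, which overlap by 1 base, and 4 CpG. Of 32851 windows, 0.925% held ATCGAT, 7.54% ATTGAT, 35.7% GGGCGG, 13.6% TATAAA and 37.4% CCAAT. These matches describe letters only, and which start was used in these tumours was not analysed here.

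The 3 genes did not follow 1 pattern. Fezf1 was higher in both resistant lines, most of all in untreated OR2. Onecut2 was high in OR1 and near the MDA594 range in OR2. Cux2 was high in OR1 with or without olaparib, and in OR2 it was high with olaparib only. None of the 3 was silent in MDA594, where each had reads in every library. Levels are the authors' log2 CPM, and reads are the whole reads recovered from them. Levels of different genes are not compared, since the values are not per length. In bulk tumours, more cells that make an RNA and more of that RNA per cell cannot be told apart.

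Fezf1 (ENSMUSG00000029697.7) had log2 CPM of 1.61, 0.94, 1.42 and 1.74 in olaparib-treated OR1 tumours, and 1.77, 1.16 and 1.38 in untreated OR1 tumours. It had 0.60, 2.23 and 1.61 in olaparib-treated OR2 tumours, and 3.17 and 2.86 in untreated OR2 tumours. It had -0.03, 0.64 and 0.10 in olaparib-treated MDA594 tumours, and -0.95, -0.70, -2.0 and -2.24 in untreated MDA594 tumours. All untreated resistant tumours lay above all untreated MDA594 tumours, and treated OR1 above treated MDA594. The lowest treated OR2 tumour, at 0.60, overlapped with the highest treated MDA594 tumour, at 0.64. The reads behind these values were 74 to 273 in OR1, 179 to 670 in OR2, 68 to 124 in treated MDA594 and 16 to 32 in untreated MDA594, so the last group is the least precise.

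The fitted difference of Fezf1 from untreated MDA594 was 2.79 (SE 0.46) in untreated OR1 and 4.38 (SE 0.55) in untreated OR2 on the log2 scale, or 6.93-fold and 20.8-fold. With olaparib the differences from treated MDA594 were 1.25 (SE 0.46) in OR1 and 1.26 (SE 0.48) in OR2. These values chose the gene and are given with no test. With the number in the title as a term, the difference was 2.39 in untreated OR2, 0.14 in treated OR1 and -1.12 in treated OR2. The treated differences thus did not keep their size under that model. It joins each resistant line to MDA594 by a single shared number, held by an untreated MDA594 tumour and a treated resistant tumour. In the order of group means, untreated OR2 came first at 3.01, well above treated OR2 (1.48), untreated OR1 (1.44) and treated OR1 (1.43), whose libraries overlapped with one another. Treated MDA594 followed at 0.23, and untreated MDA594 was lowest at -1.47. Libraries of treated OR1 and treated MDA594 did not overlap, nor did those of treated and untreated MDA594. Those of treated OR2 and treated MDA594 did overlap.

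Onecut2 (ENSMUSG00000045991.20) had log2 CPM of 3.55, 4.57, 2.24 and 4.81 in olaparib-treated OR1 tumours, and 4.81, 4.65 and 4.61 in untreated OR1 tumours. It had 2.16, 2.39 and 2.18 in olaparib-treated OR2 tumours, and 1.66 and 2.16 in untreated OR2 tumours. It had 1.25, 1.63 and 2.26 in olaparib-treated MDA594 tumours, and 2.11, 0.48, -0.34 and -0.07 in untreated MDA594 tumours. Only the untreated OR1 tumours stood clear of the matching MDA594 tumours. One treated OR1 tumour, at 2.24, lay within the treated MDA594 range, and the highest MDA594 tumours of both treatments overlapped with OR2. Reads were 235 to 2301 in OR1, 235 to 529 in OR2 and 58 to 306 in MDA594.

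The difference of Onecut2 from MDA594 was 4.01 (SE 0.66, 16.1-fold) in untreated OR1 and 2.08 (SE 0.66) in treated OR1. In OR2 it was 1.24 (SE 0.78) untreated and 0.47 (SE 0.68) treated, and the 95% intervals of both ran across 0, from -0.42 to 2.89 and from -0.96 to 1.89. With the title number as a term, the OR1 differences were 2.31 untreated and -0.19 treated, and within the later library-name series the untreated OR2 difference was 2.11. Untreated OR1 had the highest mean, 4.69 ± 0.10 (SD, n = 3), and treated OR1 a far wider spread, 3.79 ± 1.17 (SD, n = 4).

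Cux2 (ENSMUSG00000042589.19) had log2 CPM of 2.91, 4.15, 2.38 and 3.70 in olaparib-treated OR1 tumours, and 4.54, 3.83 and 4.82 in untreated OR1 tumours. It had 4.15, 3.98 and 4.25 in olaparib-treated OR2 tumours, and 0.98 and 2.53 in untreated OR2 tumours. It had 0.29, -0.25 and 0.81 in olaparib-treated MDA594 tumours, and 1.84, 1.40, 0.10 and -0.03 in untreated MDA594 tumours. All OR1 tumours and all treated OR2 tumours lay above every MDA594 tumour. Of the pair of untreated OR2 tumours, 1 lay within the untreated MDA594 range and 1 above it. Reads were 259 to 2622 in OR1, 1505 to 2100 in treated OR2, 147 and 463 in untreated OR2 and 67 to 169 in MDA594.

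The difference of Cux2 from MDA594 was 3.49 (SE 0.61, 11.2-fold) in untreated OR1, 2.94 (SE 0.61, 7.68-fold) in treated OR1 and 3.78 (SE 0.63, 13.7-fold) in treated OR2. In untreated OR2 it was 0.79 (SE 0.73), with a 95% interval from -0.74 to 2.33. This last value rested on a pair of unlike tumours: it was -0.00 without library 2 of untreated OR2 and 1.54 without library 1. With the title number as a term, the OR1 differences were 2.05 untreated and 1.09 treated. Within the later library-name series the untreated OR2 difference was 1.72.

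**Figure D1:**
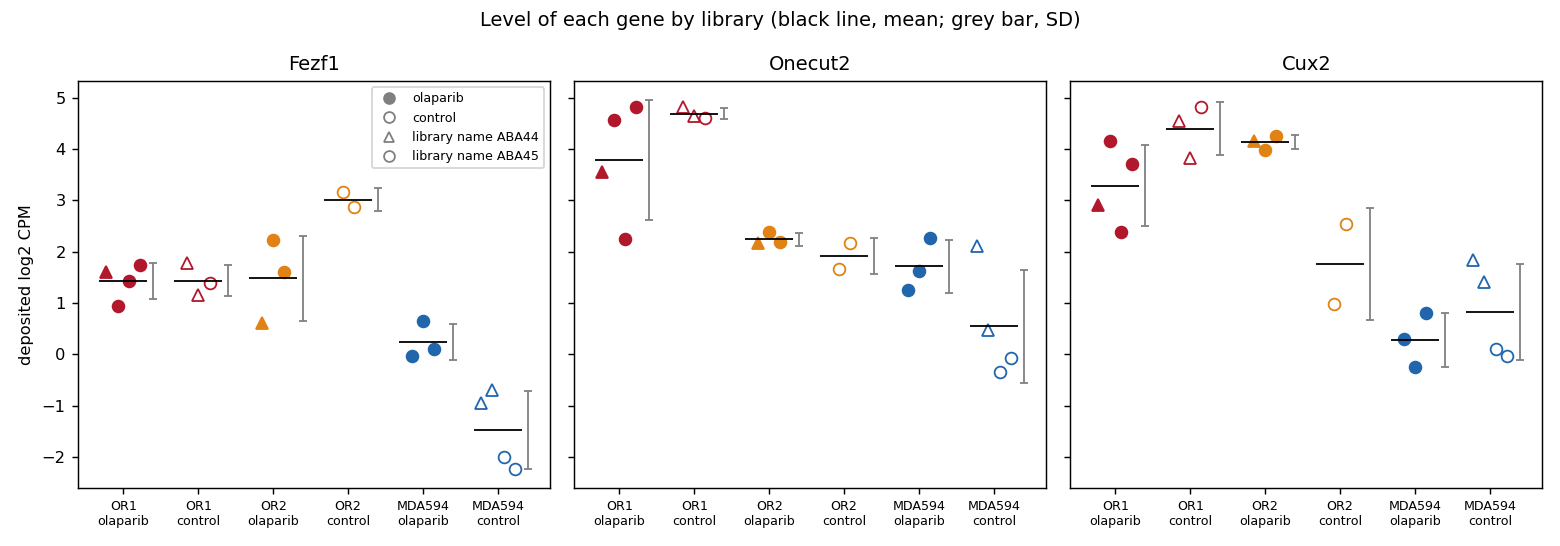
Deposited log2 CPM (y axis) of Fezf1, Onecut2 and Cux2 in each of 19 libraries, by line and treatment (x axis). Filled symbols are olaparib-treated and open symbols untreated tumours, triangles and circles are the library-name series, black lines are group means and grey bars are SD. Fezf1 peaks in untreated OR2, Onecut2 in OR1, and Cux2 in OR1 and treated OR2.

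All 3 members were among the genes higher in untreated OR1 than in untreated MDA594 past limma's adjusted threshold. They were chosen on line differences from MDA594, so that they are among these reflects the choice and is not a result. The other 3 such genes were Cdr2l (0.89), Rnf157, a ubiquitin ligase (2.16), and the kinase gene Prkd1 (1.74), given as log2 differences. Of all tested genes, 0.11% were called in that comparison in either direction, 0.214% in untreated OR2, 0.545% in treated OR1 and 1.58% in treated OR2, each against MDA594. The number of genes called in untreated OR1, 18 in all, ranged from 0 to 198 when 1 library was left out. Nothing is read from these shares. By size of the difference, Onecut2 ranked 21, Cux2 38 and Fezf1 62 in untreated OR1, so some genes with larger differences were not called.

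**Figure D2:**
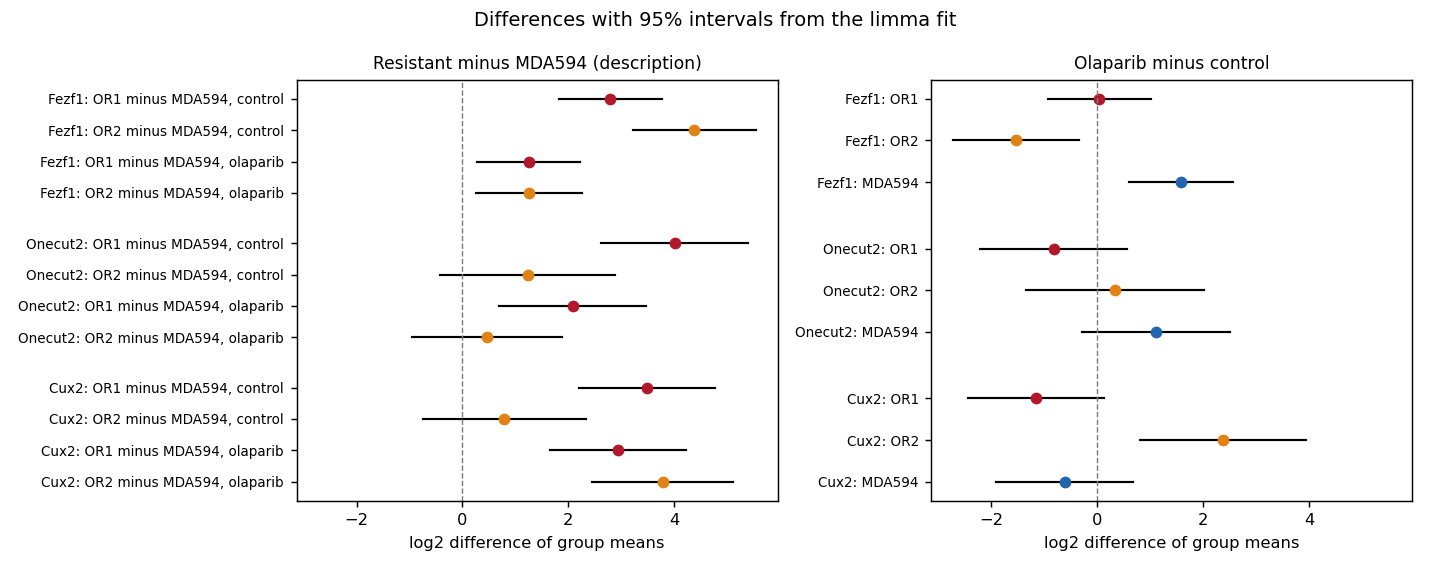
Log2 differences of group means with 95% intervals (x axis) for each gene. At the left are OR1 or OR2 minus MDA594 at matched treatment, which chose the genes and carry no test, and at the right are olaparib minus control in OR1, OR2 and MDA594. The intervals of Onecut2 in OR2 cross 0, and the olaparib response of Cux2 lies at 2.37 in OR2 and below 0 in OR1 and MDA594.

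Whether olaparib changed these genes was tested, since they were chosen on line differences and not on responses. Both the untreated and the treated tumours are shared with those line differences, so the p-values are not free of that choice. None of the 3 passed in any line at an adjusted p of 0.05. Of all genes, 0.122% were called in MDA594, 0% in OR1 and 0% in OR2. The limma test called 20 genes in MDA594, with 2740 at an unadjusted p under 0.05, and voom called 0. It called 0 genes in OR1 and 0 in OR2, with 959 and 1084 at an unadjusted p under 0.05, and voom called 0 in each.

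The fitted responses of Fezf1 differed in sign between MDA594 and OR2, and neither passed the test. Its difference with olaparib was 1.58 in MDA594 (SE 0.46, adjusted p = 0.119), and each of 3 treated tumours lay above each of 4 untreated ones. In OR2 its difference was -1.54 (SE 0.56, adjusted p = 0.63), and each of 3 treated tumours lay below both untreated ones. In OR1 the difference was 0.04 (SE 0.46, adjusted p = 0.999), with a 95% interval from -0.94 to 1.01 and overlapping libraries, and its sign turned under some other settings. Groups this small can separate fully without a true difference, and the share of all genes that did so was not counted. The OR2 response minus the MDA594 response was -3.11 (SE 0.73), with a 95% interval from -4.65 to -1.58 and limma's adjusted p = 0.585. The untreated tumours in these responses, low in MDA594 and high in OR2, are the same ones whose line differences chose the gene, and a choice on them favours these signs. The MDA594 response passed in 3 other models, with adjusted p = 0.0289 without a correlation between libraries of a code, 0.00279 with the title number as a term and 6.33e-04 within the later library-name series. The contrast of responses passed in the last 2 of these, with adjusted p = 0.0206 and 0.00925. In that series the untreated MDA594 arm is a pair of tumours from 1 host code. With the title number as a term, the MDA594 response rests on 1 host code per treatment.

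The difference of Cux2 with olaparib was 2.37 in OR2 (SE 0.74, adjusted p = 0.548), where its 3 treated tumours lay above both untreated ones. Its difference with olaparib was -1.16 (SE 0.61, limma's adjusted p = 0.881) in OR1 and -0.61 (SE 0.61, adjusted p = 0.641) in MDA594, with overlapping libraries in both. Groups as small as those of OR2 can separate fully without a true difference, and the share of all genes that did so was not counted. The OR1 response minus the OR2 response was -3.53 (SE 0.96, adjusted p = 0.491 by limma), with a 95% interval from -5.56 to -1.50. The untreated OR1 tumours in these responses also supplied the line differences that chose the gene. A choice on them favours a negative OR1 response and a negative contrast with OR2. Treated OR2 tumours supplied a further line difference, of 3.78, and a choice on them favours a positive OR2 response. Both untreated OR2 tumours share a host code. The fit within the later library-name series was made after the data were seen. The OR2 response passed within the later library-name series, at 2.36 with adjusted p = 0.0469, and the MDA594 response was 0.19 there.

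Onecut2 had differences with olaparib of -0.82 (SE 0.66, adjusted p = 0.944) in OR1, 0.34 (SE 0.80, adjusted p = 0.987) in OR2 and 1.11 (SE 0.66, adjusted p = 0.413) in MDA594. Libraries overlapped between treated and untreated tumours in all 3 lines. The untreated OR1 and MDA594 tumours also supplied the line differences that chose the gene. That choice favours a lower response in OR1 and a higher one in MDA594. In the later library-name series the untreated MDA594 arm is 1 host code. The MDA594 response was 1.86 with adjusted p = 0.021 within the later library-name series. For the contrasts between responses, limma called 0% of genes in each of the 3 pairs of lines, with 1197 (OR1 minus MDA594), 1006 (OR2 minus MDA594) and 1307 (OR1 minus OR2) at an unadjusted p under 0.05, and voom called 0.

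The resistant lines were also set against each other, averaged over treatment, a comparison in which 0.386% of all genes were called. The untreated OR1 tumours in it also supplied the line differences that chose the members. A choice on them favours positive values here, so the p-values below are not free of that choice. Onecut2 was the member that differed most, at 2.19 for OR1 minus OR2 (SE 0.52, 95% interval 1.10 to 3.29), but its adjusted p from limma was 0.0826. Untreated OR1 tumours lay above untreated OR2 tumours without overlap, and treated ones overlapped. It passed without treated OR1 library 3 (2.42, adjusted p = 0.0118), without treated OR2 library 1 (2.17, adjusted p = 0.0405), and in 3 other models with an adjusted p from 0.0136 to 0.0442. With the title number as a term its difference was 0.39. Cux2 differed by 0.93 (SE 0.48, adjusted p = 0.519) and Fezf1 by -0.80 (SE 0.36, adjusted p = 0.435). With the title number as a term the Cux2 value was -0.01 and the Fezf1 value 0.76. Within the later library-name series Fezf1 passed, at -1.11 with adjusted p = 0.0458.

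Tumours that share a host code were not always alike. In treated OR1, libraries 2 and 3 share a code, yet Onecut2 differed by 2.34 and Cux2 by 1.78 on the log2 scale, while Fezf1 differed by 0.48. Library 3, the lower of the pair for Onecut2 and Cux2, had summed fibroblast markers of 859 CPM against 196 in library 2, skeletal muscle markers of 31.4 against 1.24, and epithelial markers of 1550 against 2060. In untreated OR2, Cux2 differed by 1.54 within the pair, Onecut2 by 0.50 and Fezf1 by 0.31. Library 1, the lower for Cux2, had epithelial markers of 2720 CPM against 1910 in library 2 and fibroblast markers of 493 CPM against 1070. The tumour with the lower Cux2 thus had more epithelial marker RNA in OR2 and less in OR1. The part of tissue makeup in the members' values was not tested.

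Untreated MDA594 tumours split by library name. Libraries 1 and 2, named in the earlier series, had a mean Fezf1 of -0.82, Onecut2 of 1.29 and Cux2 of 1.62, and libraries 3 and 4, named in the later series and from 1 host code, had -2.12, -0.20 and 0.04. All 3 members were thus lower in the later pair. Untreated OR1 tumours of the earlier and the later series had Onecut2 of 4.73 and 4.61, Fezf1 of 1.46 and 1.38, and Cux2 of 4.19 and 4.82. Cux2 was thus higher in the later OR1 library, while it was lower in the later MDA594 pair. Series and host cannot be told apart in untreated MDA594.

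Onecut2 and Cux2 went together across libraries. Their Pearson r over 19 libraries was 0.79, and it was 0.79 again after the mean of each group was subtracted. Fezf1 followed neither as closely, with r of 0.58 to Onecut2 and 0.55 to Cux2, and 0.31 and 0.23 within groups. These r describe libraries that share group, host and depth, and have no p. Treated OR2 was the exception to the pairing of Onecut2 and Cux2, with Cux2 at OR1 levels and Onecut2 at 2.16 to 2.39.

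**Figure D3:**
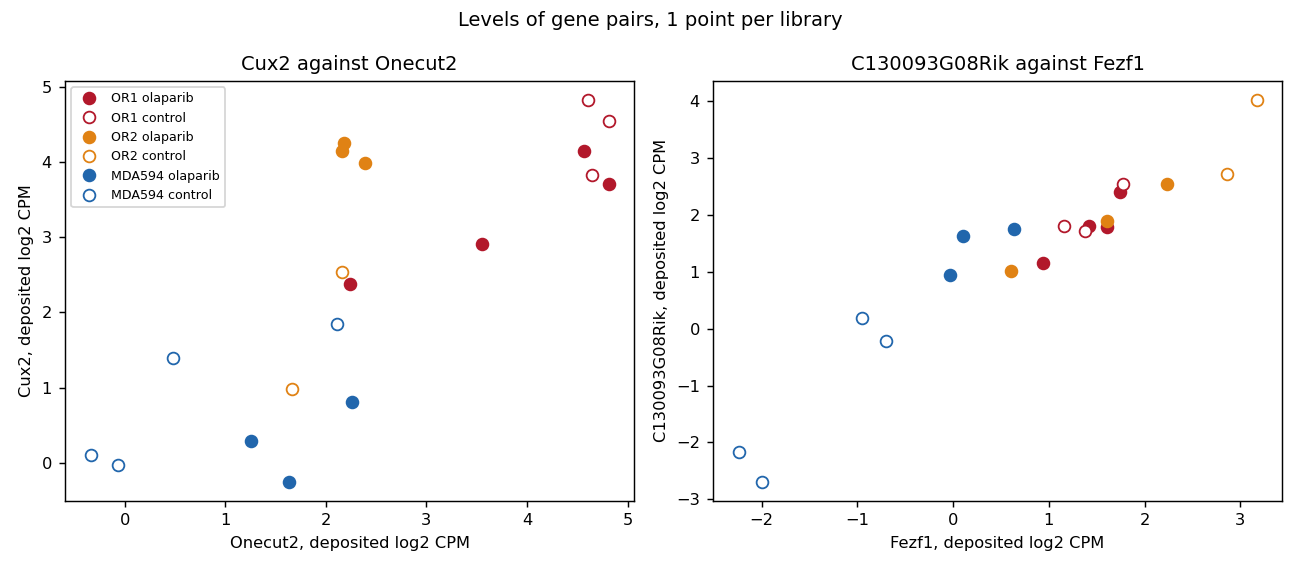
Deposited log2 CPM of Cux2 against Onecut2 (left) and of C130093G08Rik against Fezf1 (right), 1 point per library, with filled points for olaparib and colours for the lines. Treated OR2 tumours stand above the others at their Onecut2 level, and the Fezf1 pair runs along 1 line (r = 0.95).

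The genes most like Fezf1 over the 19 libraries included its own neighbours. By the highest Pearson r among 14162 genes with a group mean of at least 1, these were C130093G08Rik (0.95), Gm56925 (0.95), Gas1 (0.91), 6330403L08Rik (0.91) and Tsc22d1 (0.88). Gm56925, a long noncoding RNA, and C130093G08Rik, an unclassified transcript, occupy the 2 rows after Fezf1 in the deposited table, and GENCODE's annotation of GRCm38 has C130093G08Rik on the opposite strand. Gas1 encodes a co-receptor for hedgehog proteins and Tsc22d1 a leucine zipper regulator. C130093G08Rik had log2 CPM of 1.79, 1.16, 1.81 and 2.41 in treated OR1, 2.54, 1.80 and 1.72 in untreated OR1, 1.02, 2.55 and 1.89 in treated OR2, and 4.02 and 2.72 in untreated OR2. It had 0.94, 1.76 and 1.63 in treated MDA594, and 0.18, -0.21, -2.69 and -2.16 in untreated MDA594. It was thus highest in untreated OR2 and lowest in untreated MDA594, as Fezf1 was. Its differences from MDA594 were 3.0 in untreated OR1 and 4.39 in untreated OR2, and 0.38 and 0.35 with olaparib. Gm56925 had 2.77 and 4.11 untreated, and 0.32 and 0.52 with olaparib. Whether the counting used strand is not given in the sources used here, so reads of overlapping transcripts cannot be told apart.

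The coding genes on either side of these had smaller differences. Aass, the row before Fezf1, differed by -0.03 in untreated OR1 and -0.26 in untreated OR2, and Cadps2, the row after the noncoding pair, by 0.34 and 0.44. Ptprz1, the row before Aass, differed by 0.25 and 1.59. Of the 30 protein-coding neighbours of the members, 5 on either side of each, 0 were called in untreated OR1 (0.11% of all genes), with 3 at an unadjusted p under 0.05. In untreated OR2 0 were called (0.214%), with 5 at an unadjusted p under 0.05. With olaparib 0 were called in OR1 (0.545%), with 4 at an unadjusted p under 0.05, and 1 in OR2 (1.58%). The 1 was Aass, an enzyme of lysine breakdown, at 1.07 (SE 0.24, adjusted p = 0.0357), with 3.72 ± 0.12 (SD, n = 3) in treated OR2 and 2.68 ± 0.25 (SD, n = 3) in treated MDA594. That call was lost in 6 of the other settings, 4 of them without 1 library, where its adjusted p was 0.0571 to 0.258. The median difference of the neighbours was -0.06 in untreated OR1 and -0.02 in untreated OR2. For whole chromosomes, a reading added after the values were seen, the median difference in untreated OR1 was 0.02 on chromosome 6 (Fezf1), 0.03 on chromosome 18 (Onecut2) and 0.05 on chromosome 5 (Cux2).

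**Figure D4:**
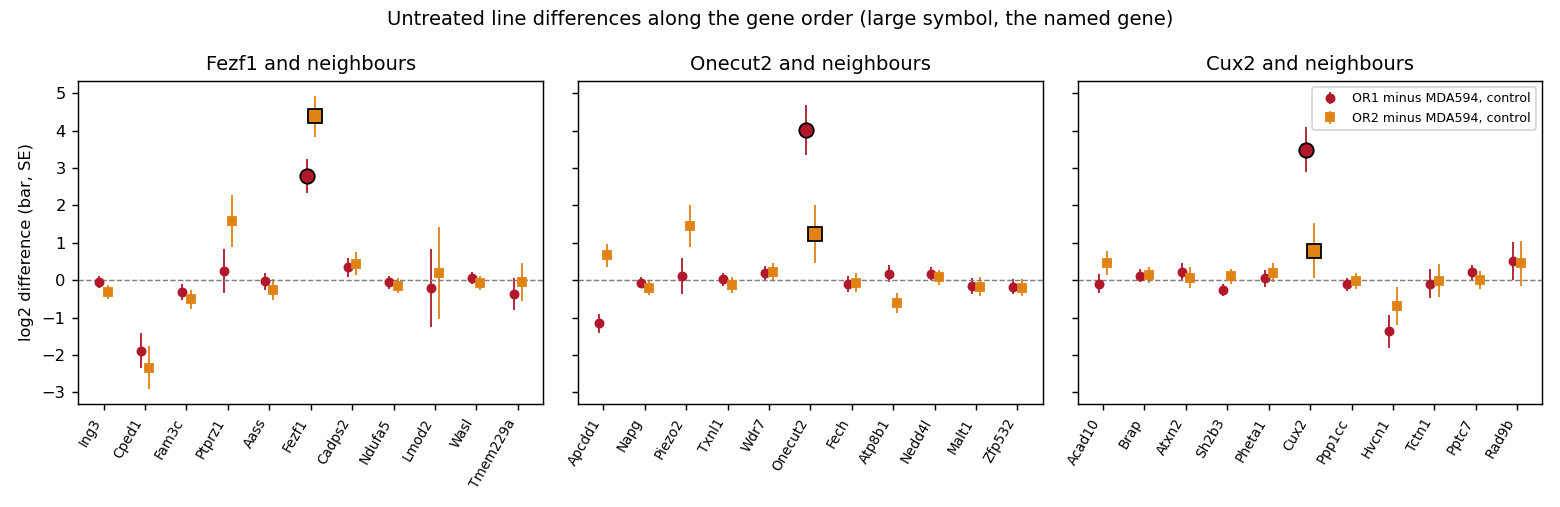
Log2 differences from untreated MDA594 with SE (y axis) of each member, as a large symbol, and of 5 protein-coding genes on either side in gene order (x axis), in untreated OR1 and untreated OR2. All members in OR1, and Fezf1 and Cux2 in OR2, lie above each of their neighbours, most of which are near 0. Cux2 in OR2 does so by little, at 0.79 (SE 0.73) against a highest neighbour of 0.46. In OR2, Onecut2 lies below its neighbour Piezo2, at 1.24 and 1.45. Cped1, near Fezf1 and named like Piezo2 after its values were seen, is lowest, at -1.88 in OR1 and -2.34 in OR2.

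The genes most like Onecut2 were Med12l, a Mediator subunit gene (0.90), Gjc1, connexin 45 (0.90), Fgf11 (0.90) and Rnf157 (0.89), given for 4 of the first 5. Gjc1, Fgf11 and Rnf157 lie on chromosome 11, which holds 8.27% of the eligible genes with a known chromosome. Chromosome 11 had a median difference of 0.12 in untreated OR1, with 745 of 1187 genes positive. The genes most like Onecut2 within groups included Esrra, Cdnf, Fgf11 and Mpp2, with r of 0.85 to 0.87.

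The genes most like Cux2 were Tshz3, a zinc finger homeobox gene (0.92), Nyap1 (0.92), Thnsl1 (0.91), Lrsam1, a ubiquitin ligase gene (0.91), and Ppara, a nuclear receptor for fatty acids (0.91). Ppara averaged 0.61 ± 0.46 (SD, n = 4) in treated OR1 and 1.26 ± 0.15 (SD, n = 3) in untreated OR1, 1.22 ± 0.37 (n = 3) and 0.85 ± 0.11 (n = 2) in treated and untreated OR2, and -1.35 ± 0.12 (n = 3) and -0.64 ± 0.73 (n = 4) in treated and untreated MDA594. Within groups the leading genes were Prdm11, Efs, Gm47204, Tspyl5 and the homeobox gene Meis1, with r of 0.85 to 0.89. For Fezf1 within groups they were C130093G08Rik, Fermt1, Hikeshi, Prkg2 and Gm56925, also with r of 0.85 to 0.89. By rank correlation, 1 of the 5 leading genes of Cux2, 2 of those of Fezf1 and 4 of those of Onecut2 were again in the first 5.

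Of the paralogs and other CUT-domain genes, Fezf2, Onecut1 and Onecut3 were not rows of the table, and Cux1 and Satb1 were tested. Neither was called in any line comparison. Cux1, the ubiquitous paralog of Cux2, lay within 7.05 to 8.39 in all libraries and differed by 0.48 in untreated OR1 (SE 0.21, adjusted p = 0.343) and 0.58 in untreated OR2 (SE 0.25, adjusted p = 0.418). Both Cux1 differences passed within the later library-name series, at 0.79 (adjusted p = 0.0238) and 0.95 (adjusted p = 9.31e-04). Satb1 differed by -1.64 in untreated OR2 (SE 0.63, adjusted p = 0.343), where 1 tumour had 1.91 and the other 4.16. Without library 2 of that group the value was -2.77 (adjusted p = 0.00825).

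Genes tied to these factors elsewhere were not called in the line comparisons. From 0.11% to 1.58% of all genes were called there, so 0 calls in lists this small say little. Of 14 listed FEZF partners and forebrain regulators 9 were tested, and 0 were called in the 4 line comparisons, with medians of 0.10 in untreated OR1 and 0.33 in untreated OR2 against 0.02 and -0.01 for all genes. Of 12 liver and pancreas regulators that act with ONECUT proteins 6 were tested and 0 called, with medians of 0.57 and 0.89. Of 9 genes tied to ONECUT2 in human prostate cancer 8 were tested and 0 called, with medians of 0.46 and 0.32. Of 8 base excision repair genes, listed because human CUX proteins stimulate OGG1, all 8 were tested and 0 called, with medians of 0.16 and 0.00. At an unadjusted p under 0.05, these 4 lists had 2, 2, 3 and 1 genes in untreated OR1 and 1, 3, 2 and 0 in untreated OR2, in the order given. Of all genes, 13.6% and 10.6% had such a p from limma in these comparisons.

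Neural genes were called singly. The calls among these transcription factors were in treated OR2 against treated MDA594, where 1.58% of all genes were called. Of 9 upper-layer neuron regulators 7 were tested, with medians of -1.0 in untreated OR1 and 0.36 in untreated OR2, and 1 was called, Bhlhe22, a basic helix-loop-helix repressor, at -4.05 in treated OR2 (SE 0.83, adjusted p = 0.0262). It had 4 to 37 reads in treated OR2 and 170 to 284 in treated MDA594. The call was lost without treated MDA594 library 2 (-3.79, adjusted p = 0.0832) or library 3 (-3.74, adjusted p = 0.207). Of 20 neural and neuroendocrine transcription factors, 3 were tested, with medians of 0.06 and 0.70, and 1 was called, Sox11, a regulator of neuron progenitors. Its log2 CPM was -0.32, 1.96 and 1.71 in treated OR2 and 4.67, 4.94 and 5.19 in treated MDA594, a difference of -3.85 (SE 0.65, adjusted p = 0.00924). Without treated MDA594 library 3 its adjusted p was 0.0974. Sox2, on the same list and named here after its values were seen, differed by 5.21 in untreated OR1 (SE 1.56, adjusted p = 0.192) and 5.77 in untreated OR2 (SE 1.85, adjusted p = 0.222). Sox11 and Bhlhe22 were thus lower, not higher, in treated OR2, where Cux2 was high. Sox2 was higher there, at 4.65 (SE 1.60, limma's adjusted p = 0.149). In that comparison 3 of 7 upper-layer regulators and 1 of 3 neural factors tested had positive values. With olaparib in MDA594, Sox11 and Bhlhe22 had differences of 2.42 and 2.52, neither called. In untreated OR2 they differed from MDA594 by -1.47 and -1.15, also not called.

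Of 20 neuron and neuroendocrine markers 9 were in the table, and they summed to 166 to 180 CPM in treated OR1, 177 to 234 in untreated OR1, 151 to 195 in treated OR2, 146 to 158 in untreated OR2, 155 to 163 in treated MDA594 and 140 to 198 in untreated MDA594. Map2, a cytoskeletal gene at 6.45 to 7.48 log2 CPM, made up the largest share of these sums, so they say little of the other markers. Single markers differed more, with values named after they were seen. Eno2 differed by 1.5 in treated OR1 (SE 0.34, adjusted p = 0.0576), Tubb3 by -1.99 in treated OR2 (SE 0.73, adjusted p = 0.173) and Syt1 by -1.58 in untreated OR2 (SE 0.63, adjusted p = 0.367), each against MDA594. Chga, Chgb, Snap25, Stmn2 and Rbfox3 were among the markers without a row. The 1 called was Ncam1, a cell adhesion gene, higher in untreated OR2 at 5.57 and 5.58 than in untreated MDA594 at 3.14 to 4.01, by 2.08 (SE 0.41, adjusted p = 0.0431). In that comparison 0.214% of all genes were called. The Ncam1 call was lost without library 2 of untreated MDA594 (adjusted p = 0.075) and with only the groups compared (0.171). It was also lost with 1 value per host code (2.06) and without library 1 of untreated OR2 (2.08). These last fits leave 1 value in untreated OR2, whose tumours share a host code. Hepatocyte markers had 0 of 6 in the table. Schwann cell markers had 3 of 5 in the table, with group medians of 257 CPM in treated MDA594 to 445 in untreated OR1. Krt7, an epithelial marker named here after its values were seen, had a difference of -3.45 between OR1 and OR2 (SE 0.65, adjusted p = 0.022), which turned to 0.26 with the title number as a term.

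Host cell markers varied with the groups. Median summed levels of leukocyte markers (6 of 7 in the table) were 131 CPM in treated OR1, 64.0 in untreated OR1, 143 in treated OR2, 224 in untreated OR2, 231 in treated MDA594 and 130 in untreated MDA594. Those of fibroblast markers (6 of 6) were 564, 225, 522, 782, 677 and 466 in the same order, and those of endothelial markers (5 of 5) were 50.4, 47.3, 51.8, 64.9, 85.7 and 55.1. Red cell markers (5 of 5) ranged over libraries from 54.5 to 2440 CPM, skeletal muscle markers (5 of 5) from 0.613 to 783, and single adipocyte and keratinocyte markers from 1.39 to 60.6 and from 2.30 to 6.72. Untreated OR1, where Onecut2 was highest, had the lowest leukocyte and fibroblast medians, and untreated OR2, where Fezf1 was highest, had the highest fibroblast and red cell medians. Their part in the members' values was not tested.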

How the data were processed

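Libraries were made from RNeasy-purified RNA with a KAPA stranded kit, per the labels. STAR 2.7.10a and RSEM 1.3.1, limma and GRCm39 appear in the submitters' processing notes. The authors deposited log2 CPM values, computed from reads plus 0.5 over a scaled library size. Whole reads were recovered from these values in every library (100% whole at a tolerance of 0.01 reads). Replicates are numbered in accession order within groups.

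The deposited log2 CPM were fitted with limma 3.58.1 (R 4.3.3): 1 mean per group, a correlation of 0.404 between libraries of a host code, variances moderated with a mean trend, 13 residual degrees of freedom. Genes with log2 CPM above 0 in at least 2 libraries were kept (16330 of 16411, 81 removed). Tests were two-sided, adjusted by Benjamini-Hochberg over all genes kept, with a threshold of 0.05 on the adjusted p. The p-values rest on the spread between libraries, several of which may share an animal. The authors' limma step is not detailed in the sources used here. The limma fit was tested on simulated log2 values, not on simulated counts.

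The members, lists, tests and alternatives were chosen with earlier results of these data known, and the line differences chose the members, so these carry no p. Untreated and treated groups are shared between responses and line differences. Named genes were the members, paralogs, neighbours and up to 4 genes per list past the threshold in a line comparison, and the 5 genes of highest Pearson r over 19 libraries, with and without group means subtracted. Neighbours and chromosomes follow the RefSeq gene table of GRCm38.p6. Alternatives were 2 other filters, 2 reads added, quantile or unscaled normalisation, and voom on the recovered reads. Voom, a limma fit of weighted log2 values, called 2 genes in untreated OR1 and 39 in untreated OR2 against MDA594. Further alternatives were other handling of host codes and fits of the compared groups alone. Library-name series or title number was also added as a batch term, and each library was left out in turn. Libraries of the later library-name series alone were fitted after the data were seen. Some genes that the naming rule covers are not reported here.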

Additional observations from a re-analysis of the deposited data

Results flagged for a closer look

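The libraries of Fezf1 lay on opposite sides of their untreated ones in OR2 and MDA594, although neither response passed (adjusted p = 0.63 and 0.119). All 3 treated OR2 tumours (0.60 to 2.23 log2 CPM) lay below both untreated ones (2.86 and 3.17), and all 3 treated MDA594 tumours (-0.03 to 0.64) lay above all 4 untreated ones (-2.24 to -0.70). The OR2 response minus the MDA594 response was -3.11 on the log2 scale (SE 0.73), and limma's adjusted p over all genes was 0.585, ranging from 0.00925 to 1 over the alternatives. The untreated tumours also supplied the line differences that chose the gene, which favours these signs. Groups this small can separate fully without a true difference, and the share of all genes that did so was not counted. Both untreated OR2 tumours share a host code.

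In the MDA594 library whose labels disagree on treatment, Onecut2 had 2.30 log2 CPM, above the 4 untreated MDA594 tumours (-0.34 to 2.11) and above the 3 treated ones (1.25 to 2.26). This library enters no comparison.

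No sample stood apart by Dixon's criterion in the 6 sets of 4 libraries examined, where chance marks about 1 set in 20.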

How the results depend on the processing

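Under the alternatives listed above, 362 of the members' values stayed the same, 11 moved in size, 10 turned in sign and 13 came to pass the threshold. Without 1 library these counts were 278, 1, 4 and 2. The line differences have no p, so only their direction and size were compared. The values that changed follow, as log2 differences, and the cause was not tested.

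With the title number as a term, Fezf1 was 2.42 for the MDA594 response (adjusted p = 0.00279), -0.09 for the OR1 response, 2.39 in untreated OR2, 0.14 in treated OR1, -1.12 in treated OR2, 0.76 for OR1 against OR2, and -2.51 (OR1) and -3.52 (OR2) for responses minus that of MDA594. Onecut2 was 2.31 in untreated and -0.19 in treated OR1. Cux2 was 2.05 in untreated OR1, 1.09 in treated OR1, 2.77 in treated OR2 and -0.01 for OR1 against OR2, and Krt7 was 0.26 for the last.

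Within the later library-name series, Fezf1 was 2.37 (MDA594 response), -0.06 (OR1 response), 3.50 and 5.13 (untreated OR1 and OR2), -1.11 (OR1 against OR2), and -2.43 and -3.47 (OR1 and OR2 responses minus MDA594). Onecut2 was 1.86 (MDA594 response), 2.11 (untreated OR2) and 2.09 (OR1 against OR2). Cux2 was 0.19 (MDA594 response), 2.36 (OR2 response), and 4.79 and 1.72 (untreated OR1 and OR2).

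Without a correlation between libraries of a code, the Fezf1 responses were 1.71 in MDA594 and -0.01 in OR1, and Onecut2 was 2.17 for OR1 against OR2. With only the groups compared, the Fezf1 OR1 response was -0.04 and Onecut2 again 2.17. With quantile normalisation the Fezf1 OR1 response was -0.21. Without 1 library, it ranged from -0.11 to 0.19, Onecut2 for OR1 against OR2 from 2.0 to 2.42, and Cux2 in untreated OR2 from -0.00 to 1.54.

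Counts over all genes moved more. Against 20 genes called for the MDA594 response, the alternatives gave 0 to 5220. They gave 0 to 148 for OR1 and 0 to 363 for OR2, against 0 in each. Against MDA594 they gave 0 to 1445 in untreated OR1 (18), 7 to 4030 in untreated OR2 (35), 1 to 4809 in treated OR1 (89) and 100 to 1954 in treated OR2 (258), and 12 to 576 for OR1 against OR2 (63). For contrasts of responses (0 each) they gave up to 1178 (OR1 minus MDA594), 963 (OR2 minus MDA594) and 9 (OR1 minus OR2).

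Replicate numbers are accession order and pair nothing. In each line some, not all, treated and untreated tumours share a number in the title. The fit with it as a term, above, is the paired analysis, although the labels do not say what it marks. In MDA594 the tumours that share a number across treatments come from 1 untreated and 1 treated host code. The MDA594 response of that fit rests on them. Its line differences join each resistant line to MDA594 by 1 shared number. That number is held by 1 untreated MDA594 tumour and 1 treated resistant tumour, so line and treatment differ together in it. Depth limits Fezf1 most, with 16 to 32 reads in untreated MDA594. Each line is 1 tumour line, and untreated OR2 is 1 host code.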

Other observations

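The library with disagreeing labels had Fezf1 at -0.81, Onecut2 at 2.30 and Cux2 at 1.21 log2 CPM, with 27, 238 and 111 reads. Its Fezf1 and Cux2 lay within the untreated MDA594 range. Its summed skeletal muscle markers were 66.5 CPM, against 0.613 to 1.46 in untreated MDA594 tumours.

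When the members' chromosomes were examined, a chromosome that holds none of them stood out. On chromosome 17, 57 of 724 genes had a positive difference in untreated OR1 against untreated MDA594, with a median of -0.55, while the medians of the other chromosomes lay between -0.04 and 0.12. In untreated OR2 against untreated MDA594, 184 of 771 genes on chromosome 8 were positive, with a median of -0.30, and 188 of 724 on chromosome 17, with a median of -0.26. This reading was added after the values were seen, and no test was made of it.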
